A study of Mus musculus with 18 samples.

Results

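The imprinted genes examined here were 32 named genes, among them Igf2, Igf2r, Peg3, Mest, Meg3 and Cdkn1c, and a member was counted as measured when the chip annotation gave it as the only gene symbol of a probe set. Of the 32 genes, 29 were measured this way, by 65 probe sets, out of 15964 genes named alone by a probe set in all. H19 and Snrpn appeared only on probe sets that carried another symbol as well and got no value, and Zim1 was on no probe set. The cells were mouse embryonic stem (ES) cells of the inbred strain FVB/N. WT LIF denotes 3 dishes of a non-transgenic FVB/N ES line kept in leukaemia inhibitory factor (LIF), the cytokine that activates the transcription factor STAT3 and keeps mouse ES cells undifferentiated. STAT3-MER OHT denotes 3 dishes of a transgenic FVB/N ES line, from embryos hemizygous for a transgene that encodes STAT3 fused to a modified ligand-binding domain of the mouse estrogen receptor, kept in 4-hydroxytamoxifen (OHT) without LIF. The transgene was driven by a chicken β-actin promoter, so it was not restricted to a cell type. Both lines were established on embryonic fibroblast feeder cells. Each group was 1 cell line, so genotype, line, LIF and OHT changed together and cannot be told apart, and the p-values measured only the spread between dishes.

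An imprinted gene is transcribed mainly from the copy inherited from the mother or mainly from the copy inherited from the father. The mark that tells the copies apart is DNA methylation laid down in the egg or the sperm at a control region, and it is kept through the divisions of the early embryo by DNA methyltransferases and by proteins that bind the methylated copy, ZFP57 with TRIM28 being the best known. Many imprinted genes act on growth: paternally expressed ones such as Igf2 tend to promote it and maternally expressed ones such as Igf2r, Cdkn1c and Grb10 tend to limit it. They lie in clusters that share a control region, and their expression is known to drift between cultures of mouse ES cells. Several of them, such as Ascl2 and Cd81, are known to be imprinted in the placenta rather than in every tissue.

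The promoters of the members are shown first, since the mark at imprinted genes is methylation of CG dinucleotides. That mark lies at control regions, and whether these promoters fall within them was not examined. RefSeq windows of 300 bases around a transcription start (250 before and 50 after it, build GRCm38.p6) were at hand for 26 of the 32 genes, in 42 windows. The median number of CG dinucleotides was 13.5 in these and 7 in all 32851 windows. TGCCGC, the letters that ZFP57 is known to bind when methylated, was found on either strand in 9 of the 42 windows (21.4%), against 11.6% of all windows. These letters hold a CG themselves, and the comparison did not allow for the higher CG number of the member windows. Windows of a gene can also overlap, as those of Mest that begin at 30737800 and 30737803 do. The difference between the shares was not tested. The windows with a match belonged to 8 genes, namely Grb10, Igf2, Meg3, Mest, Nnat, Plagl1, Snrpn and Zim1. The STAT motif TTCNNNGAA was searched on both strands and was found in 0 of the 42 windows and in 8.3% of all windows, which says only that these letters were not in these windows. The motifs do not overlap each other. A pair of stretches is shown because they belong to the genes the values below turn on most. Peg3 and Usp29 start back to back on opposite strands of chromosome 7, and the 163 bases between their starts (chr7:6730420-6730582, plus strand) hold 5 CG dinucleotides, in capitals:
Peg3 and Usp29: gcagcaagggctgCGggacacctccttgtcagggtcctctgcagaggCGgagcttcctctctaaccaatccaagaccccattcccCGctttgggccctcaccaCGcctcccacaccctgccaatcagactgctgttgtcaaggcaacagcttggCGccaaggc
The 250 bases before a start of Mest on chromosome 6 (chr6:30737800-30738049, plus strand) hold 14 CG dinucleotides and 2 matches of TGCCGC, both read on the minus strand and so printed as GCGGCA, in capitals:
Mest: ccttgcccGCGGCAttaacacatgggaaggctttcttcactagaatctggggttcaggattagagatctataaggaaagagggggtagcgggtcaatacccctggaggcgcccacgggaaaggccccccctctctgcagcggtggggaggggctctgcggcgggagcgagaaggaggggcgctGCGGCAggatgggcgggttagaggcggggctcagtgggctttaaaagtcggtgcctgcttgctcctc
No methylation was measured, and the arrays cannot show which parental copy a transcript came from.

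Each dish was hybridised to 3 Affymetrix chips (U74Av2, U74Bv2 and U74Cv2), 18 arrays in all, and the value of a probe set is its signal, a brightness on a linear scale that was set to the same trimmed mean on every array (500.1 to 500.3). Signals are compared below between dishes of 1 probe set. Levels of different genes are not ranked, and probe sets are set beside each other only to choose the brightest and against a common detection threshold. The dishes differed in their fibroblast RNA. Of 36 feeder fibroblast marker genes, 35 were measured, by 62 probe sets, and on U74Av2 their summed signal was 60738, 31839 and 72765 in WT dishes 1, 2 and 3, and 17718, 71491 and 62987 in STAT3-MER dishes 1, 2 and 3. The lowest WT dish was therefore number 2 on U74Av2. On U74Bv2 it was number 1, with a sum of 4180, against 9033 for number 2, and on U74Cv2 it was also number 1, with 18063 against 28682, so WT numbers 1 and 2 may not name the same dishes on every chip. STAT3-MER dish 1 had the lowest sum of its group on every chip, at 17718, 1855 and 9089. Dishes are therefore followed only within a chip. In a dish, fewer cells of a type and less RNA per cell cannot be told apart.

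**Figure D1:**
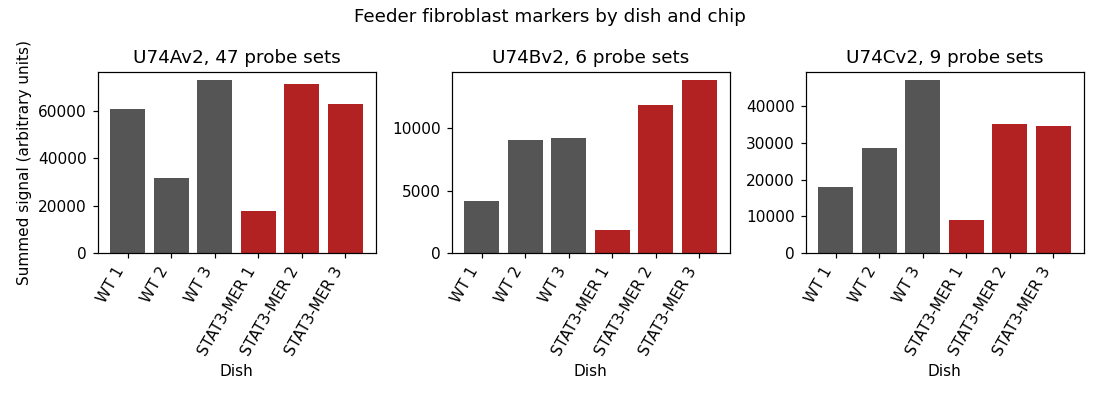
Summed signal of the feeder fibroblast markers (y axis, arbitrary units, from 0) in each dish (x axis) on the 3 chips, with WT LIF in grey and STAT3-MER OHT in red. STAT3-MER dish 1 is lowest on every chip, at 17718 on U74Av2, while the lowest WT dish is number 2 on U74Av2 and number 1 on the other chips.

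Of the 29 measured imprinted genes, 15 had a probe set that was detected in every dish. A level to call a signal present was taken from 54 genes of adult organs that neither ES cells nor fibroblasts should express, whose 90 probe sets had a median signal of 56.7 and a 90th percentile of 320.4. This 90th percentile was the threshold. Taken chip by chip it was 184 on U74Av2, 133 on U74Bv2 and 576 on U74Cv2, from 66, 6 and 18 probe sets, and those values gave 14 genes by the representative probe set in place of the 11 that follow. By 1 representative probe set a gene (the brightest without a suffix for possible cross-hybridisation), 11 of the 29 genes lay above it in all 6 dishes, namely Asb4, Ascl2, Cd81, Igf2r, Mest, Ndn, Peg3, Sgce, Slc22a18, Slc38a4 and Ube3a. Counting any probe set, a choice made after the values were seen, added Gnas, Igf2, Meg3 and Plagl1, for 15 genes. Of all probe sets on the chips, 28.16% lay above it in all 6 dishes, against 15 of the 65 of the imprinted genes. A further 7 genes passed it in 1 to 5 dishes at best, and the other 7 in none. Of the 14 measured maternally expressed genes 6 were above it by the representative probe set, and of the 15 measured paternally expressed genes 5. Ndn and Ube3a were just inside the threshold, with lowest dishes of 331 and 327, while Meg3 and Phlda2 missed it in 1 dish each, at 261 and 265.

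**Figure D2:**
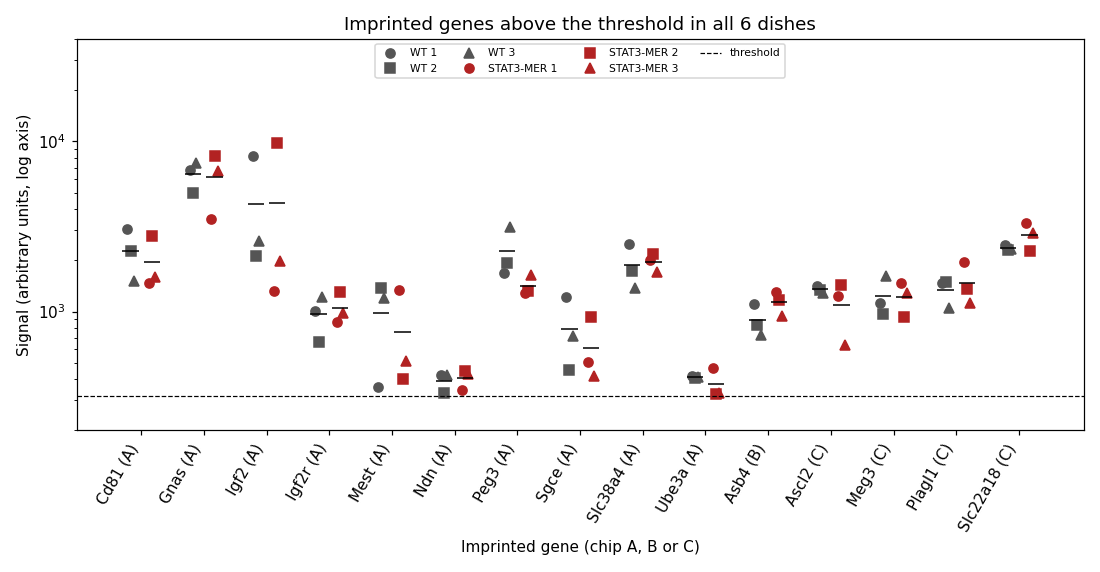
Signal (y axis, arbitrary units, log axis) of the 15 imprinted genes (x axis, with the chip) that had a probe set above the threshold, shown as a dashed line at 320.4, in all 6 dishes. Symbols mark the dishes by number, grey for WT LIF and red for STAT3-MER OHT, and short lines the group means. Dishes of both groups interleave for every gene except Peg3, in which all STAT3-MER dishes lie below all WT dishes.

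Peg3 was the 1 member above the threshold in every dish whose groups did not overlap. It encodes a paternally expressed zinc finger protein and shares its control region with Usp29 and Zim1 on chromosome 7. Its representative probe set on U74Av2 read 1686, 1936 and 3151 in the WT dishes and 1285, 1327 and 1631 in the STAT3-MER dishes, with means of 2258 ± 784 and 1414 ± 189 (SD, n = 3 each). The groups did not overlap, although the gap between the nearest dishes was small and WT dish 3 stood above the other five. The log2 fold change, STAT3-MER OHT over WT LIF on the log2(signal + 32) scale, was -0.62 with a standard error of 0.25 (limma adjusted p = 0.9996 over all probe sets of the 3 chips). Without WT replicate 3 it was -0.35. Another 2 Peg3 probe sets overlapped between the groups. The first read 330, 344 and 385 in the WT dishes and 205, 367 and 242 in the STAT3-MER dishes, and the second lay between 289 and 375 throughout. Usp29, a ubiquitin protease whose start faces that of Peg3, read between 6.81 and 137 on its 2 probe sets, under the threshold in every dish.

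Igf2 and Igf2r showed wide and narrow spread, respectively. Igf2 is the paternally expressed fetal growth factor, and Igf2r the maternally expressed receptor that removes it. The Igf2 probe set with a detectable signal carries a suffix for probes shared within its group, and it read 8155, 2121 and 2610 in the WT dishes and 1319.9, 9799 and 1985 in the STAT3-MER dishes of U74Av2. In each group 1 dish was therefore 3 or more times the other dishes, WT dish 1 and STAT3-MER dish 2, and the highest dish was 7.42 times the lowest. Its log2 fold change was -0.27 ± 0.76 (SE). The other Igf2 probe set, without a suffix, read 7.18 to 32.6 and so detected nothing above the threshold. Igf2r on chromosome 17 read 1004, 660.3 and 1219 in the WT dishes and 872, 1298 and 982 in the STAT3-MER dishes, 1.97 times from lowest to highest, with overlapping groups.

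Mest ran opposite to Igf2 in its dishes, and Phlda2 varied as widely. Mest, a paternally expressed gene for a protein of the hydrolase fold whose loss reduces growth, read 361, 1366 and 1194 in the WT dishes and 1346, 401 and 511 in the STAT3-MER dishes. WT dish 1 and STAT3-MER dish 2, the highest in Igf2, were the lowest in Mest. Phlda2, which limits placental growth, read 805, 1773 and 766 in the WT dishes and 2018, 566 and 265 in the STAT3-MER dishes. Its highest dishes were WT dish 2 and STAT3-MER dish 1, and its highest dish was 7.61 times the lowest. Neither gene differed between the groups beyond that spread, with log2 fold changes of -0.35 ± 0.57 and -0.58 ± 0.65 (SE).

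The other genes of the Kcnq1ot1 cluster on distal chromosome 7, to which Phlda2 belongs, were read at very different levels of reliability. Cd81, a tetraspanin of the cell surface, read 3059, 2282 and 1501 in the WT dishes and 1475, 2782 and 1589 in the STAT3-MER dishes. Cdkn1c, the cyclin-dependent kinase inhibitor p57, read 389, 178 and 264 against 152, 371 and 142, above the threshold in 2 dishes, WT dish 1 and STAT3-MER dish 2, which were also the highest for Cd81. Ascl2, a factor of the trophoblast, was above the threshold on U74Cv2, at 1410.5, 1345 and 1287 in the WT dishes and 1236, 1422 and 631 in the STAT3-MER dishes, 5 dishes close together and STAT3-MER dish 3 lower. A second Ascl2 probe set on U74Av2 read 30.2 to 75.2 and detected nothing above the threshold. Slc22a18, an organic cation transporter, was among the steadiest, at 2454, 2288 and 2328 in the WT dishes and 3305, 2258 and 2890.5 in the STAT3-MER dishes of U74Cv2. Its other probe set read 121 to 228. Kcnq1, a potassium channel, and Tspan32, a tetraspanin of blood cells, were under the threshold in every dish. A dim Kcnq1 probe set was higher in the STAT3-MER dishes, at 219, 193 and 230.3, than in the WT dishes, at 165, 130.4 and 179, with a log2 fold change of 0.38 ± 0.26 (SE, limma adjusted p = 0.9996), while the representative one read 27.7 to 72.4 in overlapping groups.

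The Dlk1-Meg3 cluster on chromosome 12 holds the paternally expressed Dlk1, a transmembrane relative of the Notch ligands, and the maternally expressed non-coding RNA Meg3. On U74Av2 Dlk1 read 538, 237 and 200.3 in the WT dishes and 341, 555 and 232 in the STAT3-MER dishes, with WT dish 1 and STAT3-MER dish 2 highest. A Dlk1 probe set on U74Bv2 read 25.4 to 57.4. One with a suffix on U74Cv2 had another order, at 387, 81.7 and 417 in the WT dishes and 179, 120 and 551 in the STAT3-MER dishes. Meg3 had 9 probe sets. The representative, on U74Av2, read 1451, 261 and 1942 in the WT dishes and 1024, 2143 and 1985 in the STAT3-MER dishes, and so was high in every dish except WT dish 2. A second Meg3 probe set on the same chip was lowest in that dish too, at 64.9, against 142 to 310.3 in the other 5 dishes. On U74Cv2 another read 1115, 964 and 1607 in the WT dishes and 1464, 925 and 1283 in the STAT3-MER dishes and had no dish far below the rest. The other 6 probe sets were dimmer and disagreed on the lowest dish, also within a chip. WT numbers 1 and 2 may not name the same dishes on these chips as on U74Av2. The low WT dish 2 of U74Av2 is therefore not followed to them. On U74Bv2 one read 322, 33.1 and 239 in the WT dishes and 209, 145 and 244 in the STAT3-MER dishes, far lowest in the array numbered WT 2. On U74Cv2 one was lowest in the array numbered WT 2, at 53.7 against 69.5 to 239 in the others. Another there was lowest in the array numbered WT 1, at 63.0 against 94.4 to 381. The log2 fold changes of the representative, the second U74Av2 probe set and the bright U74Cv2 probe set were 0.81 ± 0.66, 0.26 ± 0.52 and 0.00 ± 0.29 (SE), and all had overlapping groups.

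The Peg10 cluster on chromosome 6 was represented by Sgce and Asb4. Sgce, epsilon-sarcoglycan of the cell membrane, read 1213, 453 and 714 in the WT dishes and 502, 924 and 415 in the STAT3-MER dishes, again highest in WT dish 1 and STAT3-MER dish 2. Asb4, an ankyrin repeat and SOCS box protein, read 1109, 834 and 724 in the WT dishes and 1300.5, 1171 and 942 in the STAT3-MER dishes of U74Bv2, a log2 fold change of 0.35 ± 0.25 (SE) with overlapping groups. Peg10, a gene derived from a retrotransposon and needed in the placenta, read 66.2 to 240.3 and was under the threshold in every dish. An Asb4 probe set with a suffix, on U74Cv2, was also under the threshold throughout. It was higher in every STAT3-MER dish, at 185, 49.3 and 199, than in any WT dish, at 38.6, 16.6 and 14.4. Its log2 fold change was 1.56 ± 0.49 (SE, limma adjusted p = 0.9996), and at signals of this size it lies within the range of the adult-organ genes. The other dim Asb4 probe set, on U74Bv2 and without a suffix, read 15.8 to 85.7 in overlapping groups. Its log2 fold change went the other way, at -0.20 ± 0.40 (SE).

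In the Snrpn cluster on chromosome 7, the representative probe sets of Ndn and Ube3a had the smallest spread of those above the threshold. Ndn, a protein of the MAGE family that restrains the growth of neurons, read 421, 331 and 421 in the WT dishes and 347, 445 and 427 in the STAT3-MER dishes. The SD of its log2 values within a group was 0.18. A second Ndn probe set, with a suffix, read 128 to 169, under the threshold in every dish. Ube3a, the ubiquitin ligase that is maternally expressed in neurons, read 419, 409 and 412 in the WT dishes and 462, 327 and 334 in the STAT3-MER dishes. Both genes lay just above the threshold and their groups overlapped. The other 3 Ube3a probe sets were not above it in every dish and varied more, from 106 to 389, from 248 to 394 and from 12.8 to 112. Magel2 and Mkrn3 of the same cluster read 20.2 to 67.2 and 11.9 to 57.1, under the threshold in every dish.

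Slc38a4, Gnas and Plagl1, which lie outside the clusters above, also had a probe set above the threshold in every dish. Slc38a4, an amino acid transporter, read 2477, 1738 and 1383 in the WT dishes and 1999, 2169 and 1699 in the STAT3-MER dishes of U74Av2, and a second probe set on U74Bv2 read 318, 1086 and 682 against 636, 1062 and 822. Gnas, the alpha subunit of the stimulatory G protein, read 6821, 4975 and 7496 in the WT dishes and 3510.2, 8236 and 6664 in the STAT3-MER dishes on a probe set with a suffix for shared transcripts. STAT3-MER dish 1 and WT dish 2, the dishes with the least fibroblast signal on this chip, were its lowest. The Gnas representative, on U74Bv2, was dim and lower in every STAT3-MER dish, at 24.9, 31.5 and 55.5, than in any WT dish, at 57.1, 135 and 64.2 (log2 fold change -0.73 ± 0.38 SE, limma adjusted p = 0.9996). The remaining Gnas probe sets were dim too, at 5.96 to 149.5, and their groups overlapped. Their log2 fold changes were 0.04, -0.23 and -0.25. Plagl1, a zinc finger protein that slows the cell cycle, read 1465, 1496 and 1051 in the WT dishes and 1946, 1352 and 1126 in the STAT3-MER dishes of U74Cv2, on a probe set with a suffix for similar sequences. A pair of dim Plagl1 probe sets on U74Av2, at 7.05 to 24.0 throughout, had non-overlapping groups in opposite directions, with log2 fold changes of 0.33 ± 0.15 and -0.16 ± 0.15 (SE, limma adjusted p = 0.9996 for both).

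Grb10, Impact, Rasgrf1, Gatm and Nnat were above the threshold in some dishes or none. Grb10, an adaptor that dampens insulin and IGF receptor signalling, had its brightest probe set on U74Cv2, with a suffix for irregular probe sets, which read 311, 717 and 338 in the WT dishes and 709, 1501 and 1176 in the STAT3-MER dishes. WT dish 2 lay above STAT3-MER dish 1, so the groups overlapped by that pair. In each pair of dishes with the same number the STAT3-MER dish was the higher, but the labels do not say that a number pairs the dishes. The log2 fold change was 1.28 ± 0.41 (SE, limma adjusted p = 0.9996). The remaining 3 Grb10 probe sets read 7.26 to 83.9 in overlapping groups. Impact, a regulator of translation, read 147 to 378 on a probe set of the same suffix and was above the threshold in 4 dishes. Rasgrf1, an activator of Ras, read 57.4 to 369.6 and passed it in 2. Gatm, an enzyme of creatine synthesis, passed it in 2 dishes on a probe set with a suffix and in none on the other. Nnat, a membrane proteolipid of neurons, read 11.5 to 61.4.

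Across all members, no difference between WT LIF and STAT3-MER OHT passed the adjusted test. That test called 1 of the 36701 probe sets in all, so it does not show that the members were unchanged. Limma called 0 of the 65 probe sets at an adjusted p of 0.05, and the smallest adjusted p was 0.9996, beside a background of 0.00272% of the 36701 probe sets tested. At an unadjusted p under 0.05 it gave 3 of the 65 (Peg3, the Asb4 probe set on U74Cv2 and the bright Grb10 probe set), or 4.62%, against a background of 3.45%. In 3 probe sets every STAT3-MER dish was above every WT dish (4.62%, background 4.5%), and in 3 every one was below (4.62%, background 3.63%). By representative probe set, 1 gene (Plagl1) had non-overlapping groups with STAT3-MER higher and 2 genes (Peg3 and Gnas) with STAT3-MER lower. The criteria of the study's methods (a ratio of means of 1.5, a difference of 100 signal units and an unadjusted p under 0.1) were met by 1 of the 65 probe sets, the bright Grb10 probe set, or 1.54% against a background of 1.98%. All these shares lay near the background.

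The median log2 fold change over the 29 genes was -0.15, with 13 genes above 0 and 16 below, and a range of -0.73 to 0.96. The median over all probe sets was 0.01. The -0.15 rested on the choice of 1 probe set a gene: the median over the 65 member probe sets was 0.0024, and averaging the probe sets of each gene gave -0.029. The median of the 14 maternally expressed genes was -0.24, with 5 above 0, and that of the 15 paternally expressed genes 0.05, with 8 above 0. Both medians rest on the same choice of 1 probe set a gene, and only 6 and 5 of these genes were above the threshold by it. The difference between the medians was not tested. The median over the 29 genes shifted to 0.02 without the arrays numbered WT 1, which may come from different dishes on different chips, and to -0.02 without STAT3-MER replicate 3.

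**Figure D3:**
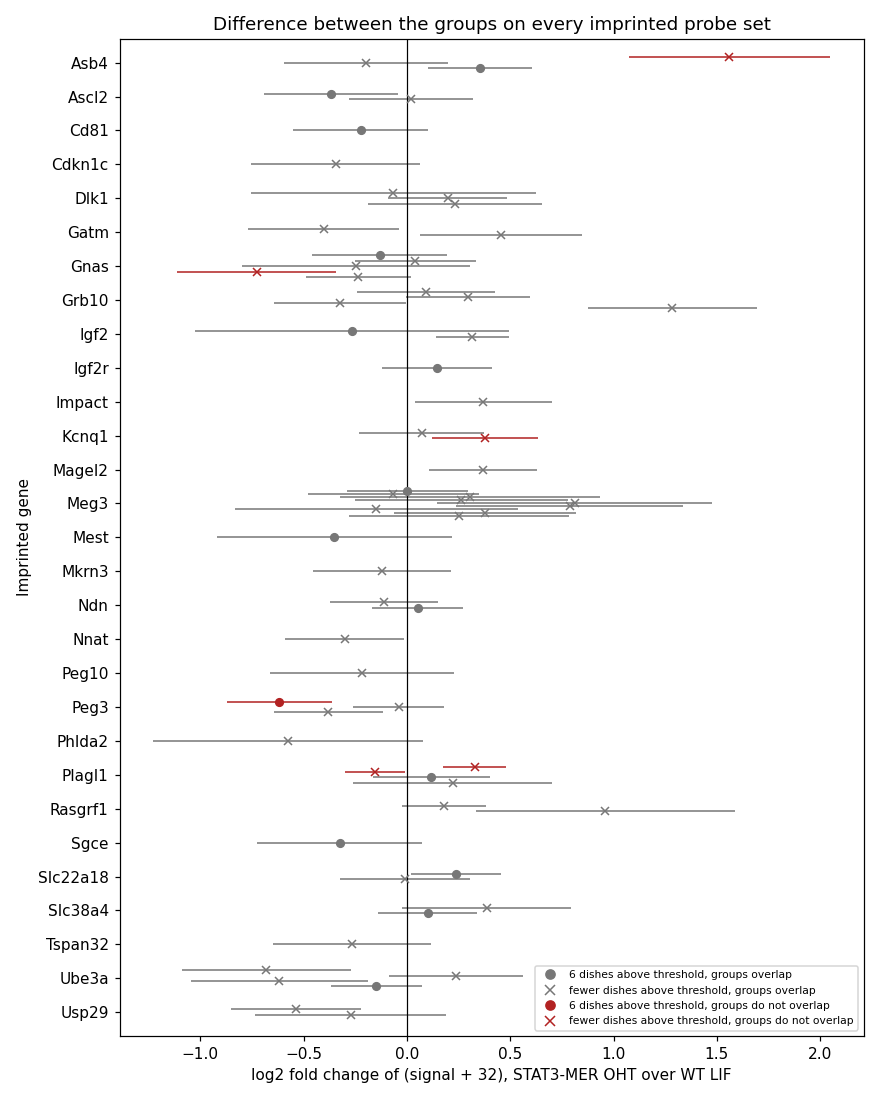
Log2 fold change, STAT3-MER OHT over WT LIF (x axis, log2(signal + 32) scale), with its standard error as bars, of each of the 65 probe sets of the 29 measured imprinted genes (y axis). Filled circles were above the threshold in all 6 dishes, crosses were not, and red marks groups that did not overlap. The values run to both sides of 0, and the 1 red circle is Peg3 at -0.62.

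The spread between dishes of a group was close to that of other probe sets. The SD of log2 values within groups had a median of 0.35 over the 11 genes above the threshold, from 0.18 in Ndn to 0.95 in Mest, beside 0.30 over all probe sets above the threshold. Over the 15 member probe sets above the threshold, the highest dish was a median of 1.97 times the lowest, beside 1.76 times for all such probe sets. Over all 65 probe sets the SD had a median of 0.45, against 0.42 for all on the chips.

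The spread followed the dishes in a repeated order, which was described after the values were seen. Of the 17 imprinted probe sets on U74Av2 with at least 1 dish above the threshold, WT dish 1 and STAT3-MER dish 2 were the highest pair in 6 (Cd81, Sgce, Dlk1, Slc38a4, Cdkn1c and Igf2), or 35.3%, against 18.1% of 5252 probe sets of that kind on the chip. They were the lowest pair in 1 (Mest), or 5.88%, against 17.3%. WT dish 2 and STAT3-MER dish 1 were the lowest pair in 4 (Ndn, Meg3, Gnas and Igf2r), or 23.5%, against 13.2%, and the highest in 2 (Phlda2 and Mest), or 11.8%, against 12.1%. The same dish orders were thus common over the whole chip, and no test was run of the difference between these shares.

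Some cell type markers on U74Av2 were ordered along the same dishes and others of the same lists were not. Krt7, a keratin of the trophectoderm, read 550, 104 and 58.6 in the WT dishes and 87.6, 337 and 46.1 in the STAT3-MER dishes. Gata4, a factor of the primitive endoderm, read 610.3, 245 and 234 against 387, 529.6 and 184. WT dish 1 and STAT3-MER dish 2 were the highest for Krt7 and Gata4, as for Igf2. The ES cell factor Pou5f1 read 2157, 5824 and 5054 in the WT dishes and 6533, 3562 and 8348 in the STAT3-MER dishes, lowest in WT dish 1 and STAT3-MER dish 2. Utf1, another ES cell gene, was likewise low in these dishes, at 2905 and 2891 against 5555 to 8363 in the other 4 dishes. Klf4, an ES cell factor downstream of LIF, was highest in them, at 2776 and 4324 against 753 to 2393. These 5 markers were picked after their values were seen. The 3 brightest ES cell markers went the other way from Pou5f1 and Utf1 or showed little order. Nanog read 14179, 7593 and 7035 in the WT dishes and 8404, 11228 and 10689 in the STAT3-MER dishes, and Sox2 read 13355, 11645 and 8933 against 10108, 12079 and 10453, both highest in WT dish 1 and STAT3-MER dish 2. Dppa5a read 43341, 28081 and 22852 against 24374, 24038 and 26296, highest in WT dish 1 and lowest of its group in STAT3-MER dish 2. Of bright primitive endoderm markers, Sparc read 2487, 1354 and 2402 against 1259, 3003 and 2710. Col4a1 read 3424, 1220 and 1715 against 953, 2934 and 1938. Tfap2c, the brightest trophectoderm marker, read 4410, 3008 and 2449 against 4600, 4860 and 2992. All were highest of their group in WT dish 1 and STAT3-MER dish 2. For Tfap2c, however, STAT3-MER dish 1 exceeded WT dish 1, as STAT3-MER dish 3 did for Sparc.

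By whole lists on U74Av2, the 32 primitive endoderm probe sets summed to 18241, 8111 and 12899 in the WT dishes and 7656, 16567 and 12176 in the STAT3-MER dishes, and the 28 trophectoderm probe sets to 8817, 6202 and 4592 against 8071, 7514 and 5164. The trophectoderm sum was thus highest of its group in STAT3-MER dish 1 and did not follow Krt7 there. The 21 ES cell probe sets summed to 101398, 93030.1 and 76272 in the WT dishes and 91653, 79651 and 102506 in the STAT3-MER dishes, highest of the WT dishes in number 1 and lowest of the STAT3-MER dishes in number 2, and so did not follow Pou5f1 and Utf1 in the WT group. The brightest fibroblast markers there were Col1a2, at 9561, 4149 and 9352 against 1978, 12565 and 8411, Acta2, at 10735, 1791 and 6359 against 553, 9487 and 6327, and Bgn, at 5091, 3086 and 9656 against 1546, 5565 and 8103. Of the fibroblast, primitive endoderm, trophectoderm and ES cell lists, limma called 0 of 62, 43, 34 and 28 probe sets, with 1, 0, 0 and 0 at an unadjusted p under 0.05. The share of each cell type in the spread of the imprinted genes was not tested.

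**Figure D4:**
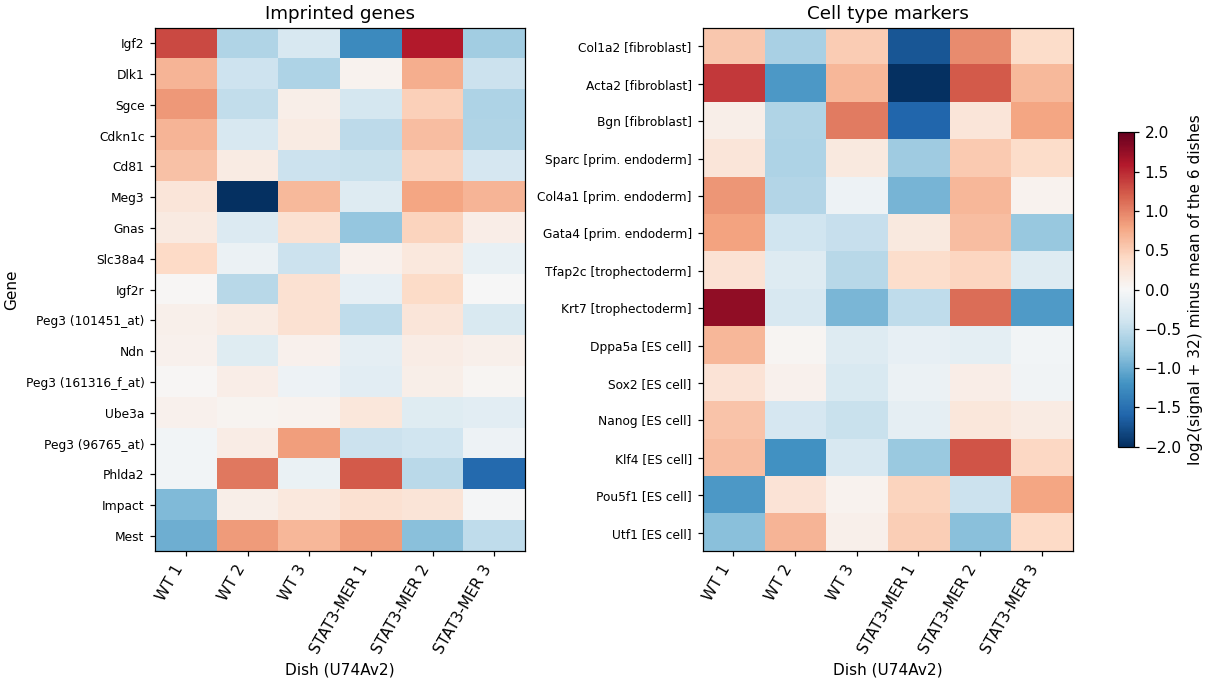
Log2(signal + 32) of each U74Av2 probe set minus its mean over the 6 dishes (colour, from -2 in blue to 2 in red) for the 17 imprinted probe sets with a dish above the threshold (left) and for marker genes of 4 cell types (right), with dishes as columns. The imprinted rows are ordered by WT dish 1 plus STAT3-MER dish 2, so Igf2, with 8155 and 9799 in these dishes, is at the top and Mest, with 361 and 401, at the bottom.

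None of the other imprinted genes differed between the groups past the test. Of 66 listed, 50 were measured, by 79 probe sets, of which limma called 0, with 5 at an unadjusted p under 0.05 (background 3.45% of all probe sets). In 7 probe sets every STAT3-MER dish was higher (8.86%, background 4.5%) and in 4 every one was lower (5.06%, background 3.63%). The smallest p-values belonged to Pon3, Sfmbt2, Atp10a and Dio3. Pon3, a lactonase near Peg10, read 129, 343 and 162 in the WT dishes and 392.2, 512 and 772 in the STAT3-MER dishes (log2 fold change 1.33 ± 0.46 SE). Sfmbt2, a Polycomb protein imprinted in the placenta, read 392, 383 and 634 against 219, 269.8 and 271 (-0.78 ± 0.26 SE). Atp10a, a phospholipid transporter, read 82.1, 71.8 and 58.5 against 161, 225 and 168, all under the threshold (1.07 ± 0.40 SE). Dio3, the deiodinase that inactivates thyroid hormone and lies beside Dlk1 and Meg3, read 1791, 668 and 186 in the WT dishes and 277, 100.3 and 83.3 in the STAT3-MER dishes (-1.96 ± 0.74 SE). The groups did not overlap for Pon3, Sfmbt2 and Atp10a and overlapped for Dio3, in which WT dish 1 alone was far above the rest.

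None of the factors that keep the imprints differed between the groups past the test. Of 33 listed, 32 were measured, by 64 probe sets, and 24 genes had a probe set above the threshold in all 6 dishes, as did 32 of the 64 probe sets. Limma called 0 of the 64, with 2 at an unadjusted p under 0.05 (background 3.45%). In 3 probe sets every STAT3-MER dish was higher and in 3 every one was lower (4.69% each, background 4.5% and 3.63%). Dppa3, which protects the maternal genome from demethylation in the zygote, had the smallest p, and read 1705, 709 and 1094 in the WT dishes and 509.5, 476 and 514 in the STAT3-MER dishes. The groups did not overlap and the STAT3-MER dishes were close together, with a log2 fold change of -1.09 ± 0.30 (SE, limma adjusted p = 0.9996). The study listed Dppa3 among its downregulated genes from its own array models, and its real time PCR gave the same direction. The adjusted p therefore does not show that Dppa3 was unchanged. Dnmt1, the methyltransferase that copies methylation to the new strand, read 1988, 2658 and 1892 in the WT dishes and 2911, 2642 and 2853 in the STAT3-MER dishes (log2 fold change 0.37 ± 0.19 SE). Kdm1a, a histone demethylase, was under the threshold in every dish, at 105 to 278 (0.57 ± 0.31 SE). Ezh2, the Polycomb methyltransferase, read 2307, 2224 and 2648 against 2679, 2829 and 3087, narrowly without overlap (0.26 ± 0.17 SE).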

How the data were processed

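RNA of each dish was amplified in 2 rounds and hybridised to 3 Affymetrix chips, and the authors computed signals with MAS5. The deposited values are intensity signals on a linear scale, scaled by the authors to a common level on each array. Here each array was brought to the exact trimmed mean of its chip, and log2(signal + 32) was fitted chip by chip with limma 3.58.1 in R 4.3.3 (eBayes, trend on, two-sided). Benjamini-Hochberg adjustment ran across 36701 non-control probe sets. The fit was tested on simulated data. Chromosomes and symbols came from the chip annotation and RefSeq. Groups followed the labels: 1 U74Av2 array of STAT3-MER OHT carries no replicate number and took the one left over, and 1 array labelled with 2 chip names was placed by its table. With 3 dishes a group the number of arrays limits the precision. Values of every dish were given for members above the threshold, and fold changes for those with non-overlapping groups. Values were also given for the 4 smallest p-values of other imprinted genes and maintenance factors. Of the 3 brightest markers of each cell type list, those on U74Av2 were given. The members and lists were chosen with earlier results of these data known. Alternatives covered the pseudocount, filter, scaling, threshold, probe set rule, the study's own criteria, the replicate number and leaving out each dish.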

Additional observations from a re-analysis of the deposited data

How the results depend on the processing

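No member probe set was called by limma under any alternative run (values as deposited, quantile or median scaling, other pseudocounts, a filter on mean signal, eBayes without trend, adjustment within each chip, the fibroblast marker level as a covariate and each dish left out), and neither was a probe set of the other imprinted genes or the maintenance factors. The criteria of the study's methods do not adjust for the number of probe sets. Applied to the array signals rather than to the study's dCHIP values, they were met by 1 of 65, 4 of 79 and 2 of 64 probe sets of these lists. Over all probe sets the share was 1.98%, and the difference from it was not tested. After Benjamini-Hochberg adjustment of the methods' t-test the numbers were 0, and 0 over all probe sets, of which 2006 had an unadjusted p under 0.1. The median log2 fold change of the members, -0.15, ranged from -0.17 to 0.021 with each dish left out, beside a spread between dishes of 0.12 (SD), and was -0.029 when the probe sets of each gene were averaged and -0.05 with the filter on mean signal. By representative probe sets of 3 chips, leaving out the arrays numbered WT 1, which may not be 1 dish, gave 0.021 and leaving out STAT3-MER dish 3 gave -0.02. The number of genes with non-overlapping groups was 3 and was 5 by any probe set. With all dishes, 4.5% of all probe sets were higher without overlap in STAT3-MER OHT and 3.63% lower. The number ranged from 4 to 8 with each dish left out, where fewer dishes must be separated. The share over all probe sets is not given for fewer dishes, and these counts are not read as a result about the members. The number of genes above the threshold was 11 and ranged from 9 to 12 with each dish left out and from 10 to 16 under the other settings. The 6 probe sets with non-overlapping groups kept their direction under each alternative run. They were picked for that separation, so leaving out a dish or changing the pseudocount could not reverse it. The kept direction is therefore not read as support. Same-numbered dishes of the groups did not deviate together on every chip: their correlations over probe sets were -0.295, -0.335 and 0.287 on U74Av2, 0.18, 0.211 and 0.13 on U74Bv2, and 0.107, 0.132 and 0.07 on U74Cv2, so the numbers were not taken as pairs. With the replicate block 0 member probe sets were called and the median was -0.15. On U74Av2 WT 1 correlated best with STAT3-MER 2 (0.459), WT 2 with STAT3-MER 1 (0.413) and WT 3 with STAT3-MER 3 (0.287). The block there may therefore join the wrong dishes. On the other chips each dish correlated best with its own number. A block of the best-correlated dishes on U74Av2 was not fitted, so the standard errors there hold any variation that such dishes shared. Alternatives added after the data were seen were the count by any probe set, a threshold of each chip, the mean over dishes and the median over detected genes.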
